A study of Homo sapiens with 18 samples.

Results

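The comparison of flutamide alone with vehicle was made on 6 of the 18 arrays of the series, the 3 titled Flutamide and the 3 titled DMSO, which were chosen and paired by the replicate number in their titles. All came from LNCaP, an established human prostate cancer line grown from a lymph node metastasis, whose growth and secretory programme respond to androgen and whose androgen receptor carries a mutation in the ligand-binding domain. The cells stood in medium with 10% charcoal-stripped serum, which is depleted of steroids, and received either the solvent DMSO or 1 µM flutamide for 24 h, with no hormone added. The other groups used here had 3 arrays each: 10 nM dihydrotestosterone (DHT) by the labels, the same DHT dose with 1 µM flutamide, and 30 µM MJC13, an experimental inhibitor of androgen receptor signalling, without DHT. The remaining 3 arrays of the series, with the same DHT dose and 30 µM MJC13, entered the fit and the filter on dim probes but no comparison. The DHT dose is not settled, since the sources used here do not give the same one. RNA was read on Illumina bead arrays, and each value below is the log2 intensity of a probe as deposited, so that 1 unit is a 2-fold difference. No source used here says whether the 3 arrays of a group came from separate cultures, so the p-values measure the spread between these arrays, which may be technical, and 1 cell line stands behind every value.

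Flutamide is a nonsteroidal antiandrogen given against prostate cancer. It is a prodrug that liver cytochromes hydroxylate to the active antagonist, and arylacetamide deacetylase hydrolyses its amide bond. The hydroxylated form occupies the androgen receptor and blocks the coactivator contacts that DHT makes possible, but the mutant receptor of LNCaP cells can be activated by it, so that it can act there as a partial agonist. Outside the androgen pathway, flutamide is known as a ligand of the aryl hydrocarbon receptor, which drives CYP1A1, and as an inhibitor of respiratory complex I in liver cells, where its use is limited by toxicity. The comparison without hormone therefore asks whether the drug by itself moves androgen target genes in either direction, and whether it calls up xenobiotic or stress genes.

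Promoter sequences of a gene from each receptor pathway are shown because these genes carry the readouts that follow: KLK3, which encodes prostate-specific antigen and is bound by the androgen receptor, and CYP1A1, the classical target of the aryl hydrocarbon receptor. Each run is the 250 bases before the start of the gene in RefSeq (GRCh38.p14), 5′ to 3′ on the gene's strand, at chr19:50854665-50854914 on the plus strand for KLK3 and chr15:74725529-74725778 on the minus strand for CYP1A1. Capitals mark AGAACA, a half-site of the androgen response element, in the first, and GCGTG, the core of the xenobiotic response element, in the second.
KLK3: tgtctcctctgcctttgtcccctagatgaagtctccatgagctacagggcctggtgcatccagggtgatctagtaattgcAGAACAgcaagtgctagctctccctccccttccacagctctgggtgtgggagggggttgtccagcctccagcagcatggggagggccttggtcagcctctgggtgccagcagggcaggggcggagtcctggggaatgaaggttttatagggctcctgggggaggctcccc
CYP1A1: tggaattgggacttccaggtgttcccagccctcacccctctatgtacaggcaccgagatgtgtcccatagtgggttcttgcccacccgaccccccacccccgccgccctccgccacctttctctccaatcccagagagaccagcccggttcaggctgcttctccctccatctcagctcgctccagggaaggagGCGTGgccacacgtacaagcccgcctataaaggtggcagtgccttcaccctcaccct
The half-site began 170 bases before the KLK3 start and the core 57 bases before the CYP1A1 start. Of 35116 promoter windows of this length, 12.4% held AGAACA or its reverse complement TGTTCT, and 32.2% held GCGTG or its reverse complement CACGC, so these letters are common and a match is only a description.

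Flutamide_2 stood apart from the rest before any comparison was made. Its mean correlation with the other 17 arrays was 0.965, while that of the other 17 lay between 0.976 and 0.983. The difference between flutamide and DMSO had a standard deviation over probes of 0.32 in pair 1, 0.47 in pair 2 and 0.35 in pair 3, and 5553 probes differed by at least 1.5-fold in pair 2 against 1983 in pair 1 and 2800 in pair 3. Of the sum of squares among the 6 arrays, 64.2% went with the replicate number, 12.05% with treatment and 23.75% with the rest. The cells carried the identity of the label: all 10 markers of luminal prostate epithelium with a named probe were above the filter on dim probes (led by FOXA1 and EPCAM), the basal keratins KRT5, KRT14 and KRT15 were below it, and so were the leukocyte marker PTPRC and the neuroendocrine marker CHGA. The members of these lists that passed were ITGB4 of 5 basal markers with a named probe, CD68 and CD14 of 6 blood cell markers, NCAM1 and INSM1 of 6 neuroendocrine markers, and PECAM1, VWF and KDR of 4 endothelial markers. The mean of those tested ranged from 6.58 to 7.00 in the DMSO and 6.01 to 7.62 in the flutamide arrays for the basal marker, 7.91 to 8.40 and 7.54 to 8.59 for blood cells, 6.81 to 7.07 and 6.65 to 7.54 for neuroendocrine cells, and 7.28 to 7.90 and 7.58 to 7.68 for endothelium. Of 9 markers of fibroblasts and smooth muscle, 6 passed the filter, with a mean between 7.90 and 7.96 in the DMSO arrays and between 7.91 and 7.96 in the flutamide arrays, and DCN, a matrix proteoglycan, was at a log2 difference of 0.67 (unadjusted p = 0.00702, limma). Their part in the results was not tested. In such bulk RNA, fewer cells of a type and less RNA per cell cannot be told apart.

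Flutamide alone moved no probe past the threshold. In limma, with the replicate number as a block and all 18 arrays in the fit, 0 of 28334 probes (0%) were called at an adjusted p under 0.05 in either direction, and the lowest adjusted p was 1. At an unadjusted p under 0.05 there were 542 probes with a higher and 596 with a lower value under flutamide, together 1138, where 1417 probes would be 5% of those tested. By genes, with the brightest probe standing for each, this was 227 of 14433 (1.57%) with a higher and 236 (1.64%) with a lower value. Without the replicate block 0 probes were called and 730 had an unadjusted p under 0.05, and with the 6 arrays alone 0 were called with the block and 0 without it, with 1334 and 376 at an unadjusted p under 0.05. Without Flutamide_2, when DMSO_2 stays in the fit without its partner, the count was also 0, with 739 probes at an unadjusted p under 0.05.

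The 95% intervals give the precision of each single difference. They are not adjusted for the number of probes, so they are not the size of change that the test could miss. The median 95% interval of a difference reached 0.45 to either side on the log2 scale, a 1.36-fold difference. Over all probes the median difference was -0.00, 224 probes were at least 1.5-fold higher and 261 at least 1.5-fold lower, and the extremes were 2.60-fold and 0.442-fold. The 3 pairs did not share a pattern: the correlation over probes of the differences was -0.01 between pairs 1 and 2, -0.10 between pairs 1 and 3 and 0.09 between pairs 2 and 3, values that share the array's probe set and no array. All 3 differences had the same sign in 25.0% of probes, 3577 of them positive and 3508 negative.

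The androgen target genes came first, since their basal level under steroid-depleted serum is where a partial agonist or an antagonist would be read. Of 43 listed androgen-induced genes, 38 had a named probe and 36 passed the filter. None of the 36 was called, 0 had an unadjusted p under 0.05, and their median log2 difference was -0.00, equal to the -0.00 over all 14433 genes tested. The medians were -0.12, -0.00 and 0.02 in the 3 pairs, 3 members had 3 positive differences and 7 had 3 negative ones, and in 1 member (KLK2) all 3 flutamide arrays lay above all 3 DMSO arrays, with 1 member (GNMT) the other way round. Among all genes, 2.25% lay wholly above and 1.87% wholly below.

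Neither prostate-specific antigen nor its neighbour KLK2 passed the test. KLK3 read 7.25, 6.58 and 8.45 in DMSO_1 to DMSO_3 and 6.33, 6.28 and 7.87 in Flutamide_1 to Flutamide_3. Every flutamide array was below its own partner, while the groups overlapped because the pair numbered 3 was high in both. The log2 difference was -0.60 (SE 0.37, 95% interval -1.38 to 0.18, unadjusted p = 0.124, adjusted p = 1.00 in limma), and it was -0.75 with pair 2 left out. In the fit of the 6 arrays alone with the replicate block, the same difference had an unadjusted p = 0.0124 in limma.

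KLK2, the kallikrein that can activate the KLK3 product, read 6.60, 6.71 and 6.86 with DMSO and 7.15, 7.28 and 6.90 with flutamide. The groups did not overlap, although the gap between the closest arrays was small. The log2 difference was 0.39 (SE 0.25, 95% interval -0.14 to 0.92, unadjusted p = 0.143 in limma) and it was 0.29 without pair 2. TMPRSS2, the membrane serine protease whose promoter is fused to ETS genes in many prostate tumours, was almost the same in each pair, at 11.04, 10.62 and 11.73 with DMSO and 11.09, 10.56 and 11.73 with flutamide. Its log2 difference of -0.00 had a 95% interval of -0.40 to 0.39.

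FKBP5, which encodes the cochaperone FKBP51 of steroid receptors, read 11.59, 11.41 and 11.25 with DMSO and 11.46, 11.61 and 11.65 with flutamide. The groups overlapped, with a log2 difference of 0.16 (SE 0.20, unadjusted p = 0.445 in limma). The member with the largest positive value was RAB3B, a small GTPase of secretory vesicles, at 7.91, 7.83 and 7.25 against 8.12, 8.67 and 7.39. All 3 pairs were positive, with most of the difference in pair 2: the log2 difference was 0.40 (unadjusted p = 0.107) with all arrays and 0.17 without pair 2. MAF, a basic leucine zipper factor, was at -0.30 (unadjusted p = 0.125), and -0.07 without pair 2.

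**Figure D1:**
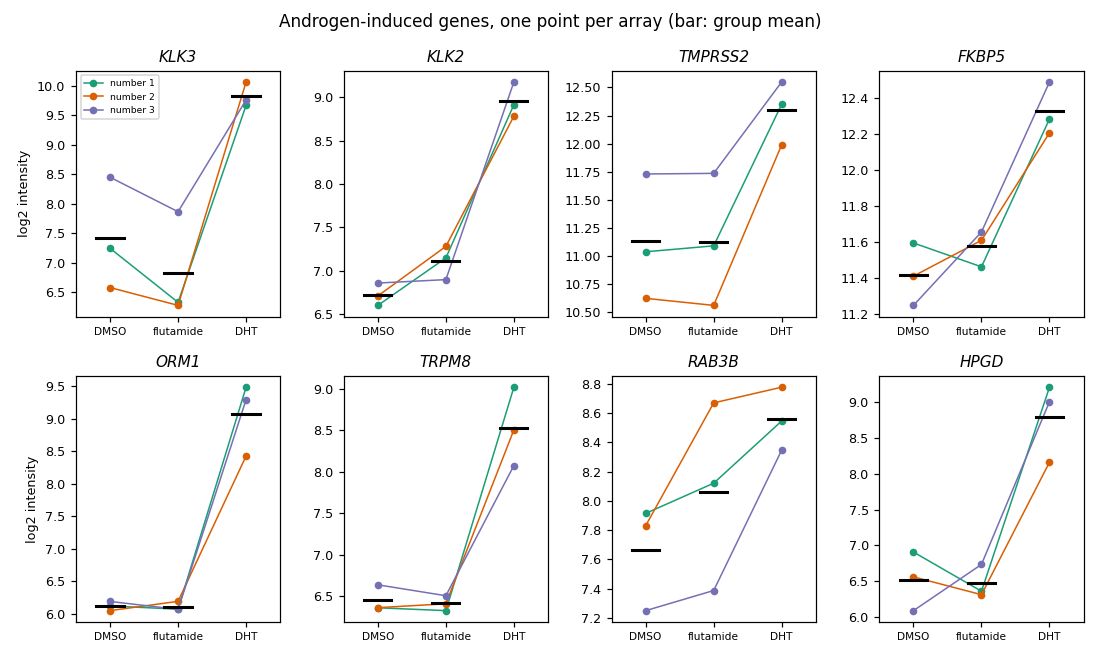
Log2 intensity (vertical axis) of 8 androgen-induced genes in the DMSO, flutamide and DHT arrays, with 1 point per array, lines joining arrays of the same title number and a black bar at each group mean. The flutamide means differ from the DMSO means by between -0.60 (KLK3) and 0.40 (RAB3B) on the log2 scale, while all 3 DHT arrays of KLK3, KLK2, TMPRSS2, FKBP5, ORM1, TRPM8 and HPGD lie above all 3 flutamide arrays.

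A group of 4 further androgen-induced genes was chosen after their values were seen, as the members with the largest DHT response besides KLK3 and KLK2. ORM1, which encodes the acute-phase protein orosomucoid, read 6.12, 6.05 and 6.19 with DMSO and 6.07, 6.19 and 6.07 with flutamide, against 9.48, 8.43 and 9.29 with DHT. The gene was at the bottom of the array's range without hormone, with or without the drug. ORM2, its near-identical neighbour, whose signal cannot be told apart from that of ORM1 with certainty, had a log2 difference of 0.18. HPGD, which inactivates prostaglandins, was at -0.05 and TRPM8, the cold-sensing cation channel, at -0.04.

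Set directly against DHT, the androgen programme was low with flutamide alone. Over all genes, 325 of 14433 (2.25%) were called lower with flutamide than with DHT and 107 (0.741%) higher. Of the 36 androgen-induced genes, 19 were called lower and 0 higher, and 31 had a negative value, with a median of -0.92. All 3 flutamide arrays lay below all 3 DHT arrays in 21 of the 36, against 8.56% of all genes. Of the 36, ORM1, ORM2 and PGC had means under the filter in every group without DHT and so were tested only through the arrays with DHT, and without these 3 the counts were 16 called and 18 wholly below, of 33, with a median of -0.84. The call was 13 of 36 without the replicate block, 10 with the description number as the block, 8 and 6 on the arrays of those groups alone with and without the block, and 17 without Flutamide_2. These genes were listed because androgen induces them, so their place against DHT is a check of the list. DHT against the same DMSO arrays gave the list a median of 0.93. There 20 of the 36 were called higher and 0 lower, beside 235 and 74 of all 14433 genes. The flutamide and DMSO arrays both had no hormone, so the gap between flutamide and DHT does not separate the drug from the missing hormone.

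For KLK3 that gap was -3.01 on the log2 scale (adjusted p = 0.000444 in limma), for KLK2 -1.85 (adjusted p = 0.000844) and for TMPRSS2 -1.17 (adjusted p = 0.00277). HPGD was at -2.32 and TRPM8 at -2.12, both called. FKBP5 was at -0.75 (adjusted p = 0.0651) and RAB3B at -0.50 (adjusted p = 0.365), and neither was called. The DHT arrays against the same DMSO arrays gave 2.41 for KLK3, 2.23 for KLK2, 1.17 for TMPRSS2, 0.91 for FKBP5 and 0.89 for RAB3B, beside -0.60, 0.39, -0.00, 0.16 and 0.40 for flutamide. The values of the 2 comparisons share the DMSO arrays.

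Genes that androgen lowers would show antagonism as a higher value. Of 24 listed, 22 had a named probe and 21 were tested, with a median log2 difference of 0.03, 7 members with 3 positive differences and 0 with 3 negative ones. Over all genes 1870 and 1739 of 14433 were of these kinds. One member had an unadjusted p under 0.05 and 0 were called. It was NRXN3, a neurexin of synaptic contacts, at 6.28, 6.75 and 6.33 with DMSO and 6.96, 6.83 and 6.72 with flutamide. The groups overlapped by 1 array, and the log2 difference was 0.39 (SE 0.18, unadjusted p = 0.0427, adjusted p = 1.00 in limma). With DHT against the same DMSO arrays, the list had a median of -0.27. Of its 21 tested members, 2 were called lower and 1 higher there, beside 74 and 235 of all 14433 genes. NRXN3, and CD200 and UGT2B7 named below, were not called there, at 0.10, -0.22 and -0.04.

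CD200, a membrane glycoprotein that restrains myeloid cells, was at 0.47 (unadjusted p = 0.0547), from 7.66, 8.12 and 6.80 to 7.78, 8.64 and 7.58. UGT2B7 was at 0.43 (unadjusted p = 0.0701), with flutamide arrays of 7.32, 7.61 and 7.08 above DMSO arrays of 7.01, 6.74 and 6.96. UGT2B15 and UGT2B17, the enzymes that glucuronidate DHT in the prostate and that share much of their sequence, were near the top of the array's range in both groups. They had log2 differences of -0.02 and 0.05, with 95% intervals of -0.34 to 0.30 and -0.28 to 0.37. AADAT, an aminotransferase that was listed here as androgen-repressed but was lower with flutamide than with DHT by a log2 value of -1.40 (adjusted p = 0.0121), was at 0.08 against DMSO, with its other probe at -0.55 (unadjusted p = 0.0176). CPLX2, a regulator of vesicle release, was at -0.08 by its brighter probe and at -0.65 by the other (unadjusted p = 0.00231 in limma).

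Genes of the androgen receptor's partners and of steroid metabolism gave small values as well. Of 26 tested, 0 had an unadjusted p under 0.05 and the median was -0.02, though 8 had 3 negative differences and 3 had 3 positive ones. SRD5A1, a 5-alpha reductase that makes DHT from testosterone, read 9.52, 9.42 and 9.56 with DMSO and 9.89, 9.84 and 9.69 with flutamide. The groups did not overlap, and the log2 difference was 0.31 (unadjusted p = 0.0695 in limma). BAG1, a cochaperone that binds the receptor, was at -0.40 (unadjusted p = 0.0798), also with no overlap, and HSD17B6, which acts on androgen metabolites, at -0.31 (unadjusted p = 0.102). The BAG1 probe was dim, with means of 6.68 with DMSO and 6.28 with flutamide.

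Xenobiotic genes were read next. Of 18 listed genes of the aryl hydrocarbon receptor, 16 had a named probe and 11 were tested. Their median log2 difference was 0.02, 0 had an unadjusted p under 0.05, and 2 of 11 (CYP1A1 and SLC7A5) had all 3 flutamide arrays above all 3 DMSO arrays, as did 2.25% of all genes. CYP1A1, the oxidase that the receptor induces most strongly in many cell types, read 6.43, 6.46 and 6.34 with DMSO and 6.79, 6.70 and 6.72 with flutamide. The 3 flutamide values lay close together and above the DMSO values, all within the dim end of the array. The log2 difference was 0.33 (SE 0.40, 95% interval -0.51 to 1.17, unadjusted p = 0.416 in limma), where the SE carries the spread of this probe over all 18 arrays. In the fit of the 6 arrays alone with the replicate block, the unadjusted p was 0.0626. With DHT present, adding flutamide gave 0.21 (unadjusted p = 0.606).

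SLC7A5, a neutral amino acid transporter, had the same order, at 9.39, 9.27 and 9.42 with DMSO and 9.62, 9.50 and 9.59 with flutamide. Its log2 difference was 0.21 (unadjusted p = 0.269 in limma), and it was 1.01 higher with flutamide than with DHT on the log2 scale (adjusted p = 0.00581). With DHT against DMSO, SLC7A5 was at -0.81 (adjusted p = 0.0307 in limma).

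The groups overlapped for the other targets named here. CYP1B1 read 6.35, 6.40 and 6.09 with DMSO and 6.23, 6.10 and 6.64 with flutamide, for a log2 difference of 0.04. TIPARP, an ADP-ribosyltransferase that feeds back on the receptor, was at -0.05, from 10.21, 10.41 and 9.59 to 9.94, 10.40 and 9.72. NQO1, the quinone reductase shared with NRF2, was at 0.02 with a 95% interval of -0.32 to 0.35. The receptor's repressor AHRR, its targets CYP1A2, ALDH3A1 and UGT1A6 and PTGS2 were below the filter on dim probes, with group means between 5.97 and 6.17 in both groups. ARNT, the receptor's partner, was at -0.22 (unadjusted p = 0.237) and IL1B, the interleukin, at -0.37 (unadjusted p = 0.137).

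The pregnane X and constitutive androstane receptors, xenobiotic sensors of the liver and gut, were poorly represented. Of 25 listed targets and receptors 22 had a named probe, and 12 of these, among them CYP3A4, CYP2B6, UGT1A1 and NR1I3, were below the filter in LNCaP cells. The 10 tested had a median of 0.07 and 8 were positive, with 1 at an unadjusted p under 0.05. It was UGT1A3, a glucuronosyltransferase whose transcripts share their last exons with the rest of the UGT1A locus, at 8.30, 7.69 and 8.53 with DMSO and 8.48, 8.85 and 8.67 with flutamide. The difference of 0.50 (SE 0.21, unadjusted p = 0.033, adjusted p = 1.00 in limma) rested mostly on pair 2 and was 0.16 without it. ABCB1, the drug efflux pump, was at 0.25 (unadjusted p = 0.174) and CYP3A5 at 0.06 (unadjusted p = 0.777).

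Enzymes that conjugate drugs or hydrolyse amides, 33 tested of 44 listed, had a median of -0.01 and 0 members at an unadjusted p under 0.05. AADAC, the deacetylase that cleaves flutamide in liver, was below the filter, with means of 6.02 and 6.06. CBR3, a carbonyl reductase, was at -0.35 (unadjusted p = 0.101) and GSTM1, a glutathione transferase with close paralogs, at -0.25 (unadjusted p = 0.137). CES2, a carboxylesterase that hydrolyses prodrugs and was listed with the pregnane X receptor targets, gave different readings by probe: the dimmer was among the most negative of the array at -0.95, from 8.82, 8.75 and 7.93 to 8.53, 6.57 and 7.52, while the brighter was at 0.01. Of the first, most came from Flutamide_2, and without pair 2 it was at -0.35.

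**Figure D2:**
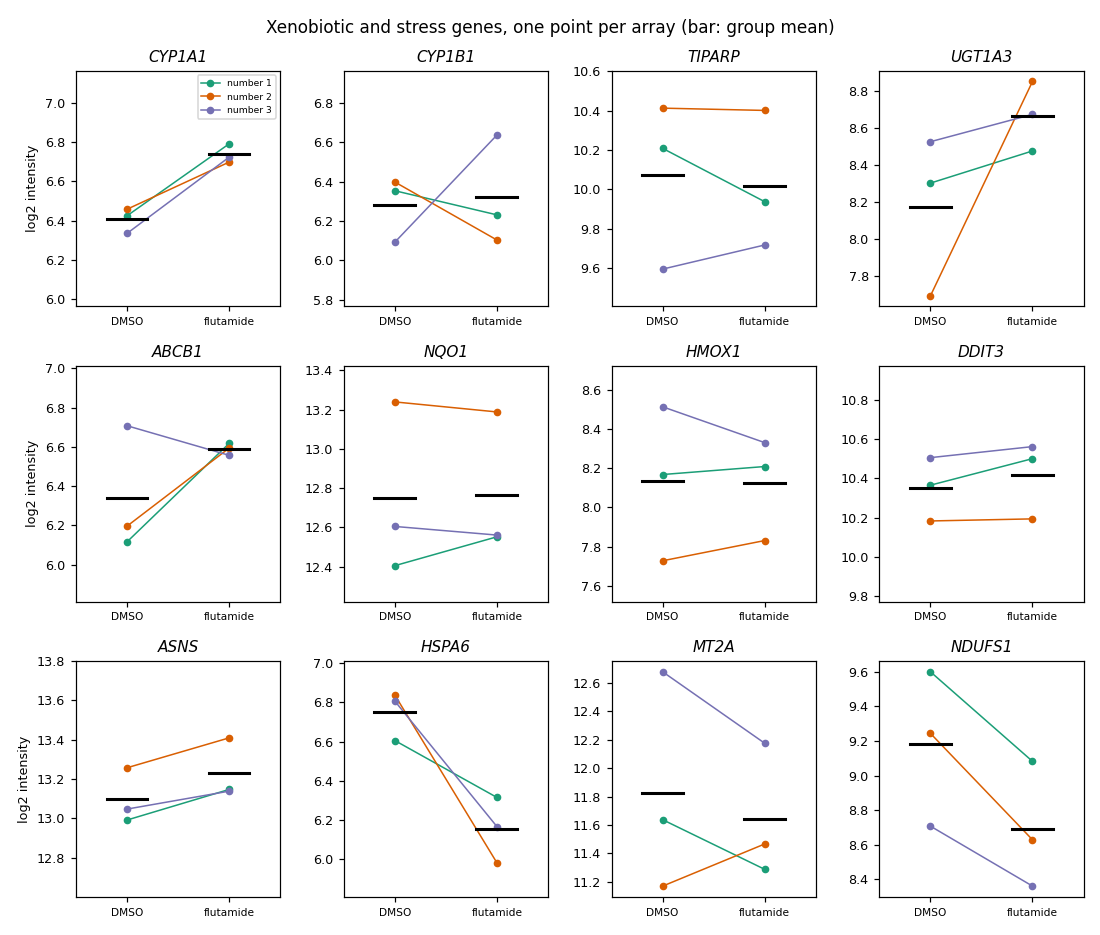
Log2 intensity (vertical axis) of 12 xenobiotic and stress genes in the DMSO and flutamide arrays, with 1 point per array, lines joining the 3 pairs of the same title number and a black bar at each group mean. The pairs run the same way for CYP1A1, HSPA6 and NDUFS1 (log2 differences of 0.33, -0.59 and -0.49) and in mixed directions for CYP1B1, TIPARP, NQO1, HMOX1 and MT2A.

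Oxidative stress genes driven by NRF2 gave values near 0. The 23 tested had a median of -0.01 and a range from -0.32 to 0.18, with 0 at an unadjusted p under 0.05. HMOX1, the haem oxygenase that electrophiles induce, read 8.17, 7.73 and 8.51 with DMSO and 8.21, 7.83 and 8.33 with flutamide, a log2 difference of -0.01 with a 95% interval of -0.72 to 0.69. GSR, glutathione reductase, was the lowest of the list at -0.32 (unadjusted p = 0.162), with its larger part in pair 1. GCLC, which catalyses the rate-limiting step of glutathione synthesis, was at -0.23 (unadjusted p = 0.223). GCLM, of the same list, was at -0.14 by its brightest probe and at -0.69 by the other (unadjusted p = 0.0186 in limma).

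Genes of the integrated stress response, which ATF4 turns on when amino acids are short or mitochondria fail, had a median of 0.05 over 41 tested, with pair medians of 0.03, 0.12 and 0.04. Of the 41, 12 had 3 positive and 4 had 3 negative differences, 1 had an unadjusted p under 0.05 and 0 were called. It was JDP2, a repressor of the AP-1 family, at 8.27, 8.33 and 8.11 with DMSO and 8.39, 8.94 and 8.49 with flutamide. The groups did not overlap, and the log2 difference of 0.37 (SE 0.16, unadjusted p = 0.0339, adjusted p = 1.00 in limma) was 0.26 without pair 2. CTH, of cysteine synthesis, was at -0.37 and ALDH1L2, a mitochondrial folate enzyme, at -0.40.

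The classical members of that response stayed within their error. DDIT3, which encodes the apoptotic factor CHOP, read 10.37, 10.18 and 10.51 with DMSO and 10.50, 10.19 and 10.56 with flutamide. The log2 difference was 0.07 with a 95% interval of -0.34 to 0.48. ASNS, asparagine synthetase, was at 0.13 by its brightest probe and at -0.21 by the other. TRIB3, a pseudokinase, was at 0.05 and ATF3 at -0.15. Against DHT, 4 of the 41 were higher with flutamide, DDIT3 among them at 0.81 (adjusted p = 0.0379 in limma), against 0.741% of all genes in that direction. Without the replicate block 1 of the 41 was called in that direction, and 0 were on the arrays of those groups alone or with the description number as the block. With DHT against DMSO, 3 of the 41 were called lower and 0 higher, beside 74 and 235 of all 14433 genes.

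Protein-folding stress gave no shared movement. The 21 genes tested of the response to misfolded protein in the endoplasmic reticulum had a median of -0.06, with HSPA5, its main chaperone, at -0.02. XBP1, its transcription factor, was at -0.25 (unadjusted p = 0.154) by its brightest probe and at 0.01 by the other (unadjusted p = 0.954 in limma). The 24 heat shock genes had a median of -0.04. HSPA6, a strictly stress-induced member of the HSP70 family that resembles its paralogs, read 6.61, 6.84 and 6.81 with DMSO and 6.32, 5.98 and 6.17 with flutamide. The groups did not overlap and the value was lower in each pair, at -0.59 (SE 0.20, unadjusted p = 0.00921, adjusted p = 1.00 in limma). Without pair 2 it was at -0.46. The HSPA6 means were 6.75 with DMSO and 6.16 with flutamide, the latter below the filter value of 6.31, at the dim end of the array. HSPD1, the mitochondrial chaperonin, was at 0.31 (unadjusted p = 0.0906) by its brightest probe, and its other tested probes lay between -0.42 and 0.19. HSPA1A was below the filter.

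Respiratory complex I, which flutamide inhibits in liver preparations, was read through its subunit genes. The 35 tested had a median of -0.02 and 1 had an unadjusted p under 0.05. NDUFS1, the largest subunit, read 9.60, 9.24 and 8.71 with DMSO and 9.08, 8.63 and 8.36 with flutamide. Each flutamide array was below its partner, and the log2 difference was -0.49 (SE 0.21, unadjusted p = 0.0335, adjusted p = 1.00 in limma). NDUFB1 was at -0.36 (unadjusted p = 0.135) and NDUFA5 at 0.36 (unadjusted p = 0.174). The 30 hypoxia and glycolysis genes had a median of 0.05, with LDHA, lactate dehydrogenase, at -0.24 (unadjusted p = 0.116).

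Metallothioneins bind zinc and other metals and share most of their sequence. The list read for them also holds MTF1 and SLC30A1, which are not metallothioneins, and it followed the replicate number more than the drug. Its mean over the 9 genes tested, these included, was 10.4, 10.4 and 11.2 in DMSO_1 to DMSO_3. In Flutamide_1 to Flutamide_3 it was 10.5, 10.3 and 11.2. Only the arrays numbered 3 stood high, in both groups alike. MT2A was at -0.19 (SE 0.29, unadjusted p = 0.527) and MT1X at 0.20 (unadjusted p = 0.283).

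The p53 targets had a median of -0.04 over 24 tested, with 0 members having 3 positive and 5 having 3 negative differences. MDM2, the ligase that degrades p53, read 7.97, 7.71 and 7.26 with DMSO and 7.30, 7.00 and 7.23 with flutamide. The pair numbered 3 hardly differed, and the log2 difference was -0.47 (SE 0.21, unadjusted p = 0.0401, adjusted p = 1.00 in limma), while the dimmer MDM2 probe was at 0.26. TNFRSF10B, a death receptor, was at -0.28 (unadjusted p = 0.0833) and GADD45A at -0.30 (unadjusted p = 0.12), with its other probe at -0.49 (unadjusted p = 0.0113). CDKN1A, which encodes the cell cycle inhibitor p21, was at 0.08 with a 95% interval of -0.45 to 0.62, and GDF15, a secreted stress cytokine, at 0.11 with an interval of -0.56 to 0.78.

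Inflammatory and immediate-early genes had no member called. USP18, a protease that removes the ubiquitin-like ISG15, was at -0.54 (SE 0.20, unadjusted p = 0.0153, adjusted p = 1.00 in limma), from 8.36, 8.20 and 8.53 to 7.61, 7.60 and 8.25. It was the single member of 23 interferon-induced genes at an unadjusted p under 0.05, and IFI44L of the same list was at 0.39 (unadjusted p = 0.113). The chemokine CXCL10 was at 0.61 (unadjusted p = 0.0751), from 7.59, 7.40 and 6.38 to 7.40, 8.49 and 7.32, and at 0.37 without pair 2. EGR1, an immediate-early transcription factor, was at -0.33 (unadjusted p = 0.143). The 23 immediate-early genes had a median of -0.05, and the pair medians were -0.19, -0.12 and 0.04. Of the 23, 17 had a negative value, beside 7269 of all 14433 genes. Among them 0 had 3 positive and 2 had 3 negative differences.

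Cell cycle genes were near 0 against DMSO and lower than with DHT. The 40 DNA replication genes tested had a median of 0.05 and the 36 mitosis genes one of -0.01 for flutamide against DMSO, with 0 at an unadjusted p under 0.05 in both. With DHT against the same DMSO arrays, the medians were 1.12 and 0.91. There 28 of the 40 and 15 of the 36 were called higher and 0 lower, beside 235 and 74 of all 14433 genes. The vehicle arrays thus stood below the DHT arrays too. For flutamide against DHT, 39 of 40 and 36 of 36 had a negative value. Called lower were 27 of the 40 and 19 of the 36, against 2.25% of all genes. Without the replicate block these counts were 5 and 0, with the description number as the block 4 and 0, on the arrays of those groups alone 4 and 0 with the block and 0 and 0 without it, and without Flutamide_2 they were 23 and 10.

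DTL, an adaptor of replication-coupled ubiquitination, read 9.05, 8.23 and 9.47 with DMSO, 8.61, 7.44 and 9.24 with flutamide and 10.54, 9.64 and 10.41 with DHT. Arrays numbered 2 were the lowest in each group. Its difference from DMSO was -0.49 (unadjusted p = 0.0881) and from DHT -1.77 (adjusted p = 0.00212 in limma). CCNA2, cyclin A2, was at 0.21 against DMSO (unadjusted p = 0.228) and at -1.11 against DHT (adjusted p = 0.0018). TOP2A, topoisomerase II alpha, was at 0.29 against DMSO and at -0.78 against DHT (adjusted p = 0.0322). ORC1, of the origin recognition complex, was at -0.46 and E2F1 at 0.41 against DMSO, with unadjusted p-values of 0.0674 and 0.127.

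Lipid synthesis genes were near 0 as a group, with medians of -0.04 over 21 cholesterol genes and 0.02 over 23 fatty acid genes. HSD17B7, which acts in cholesterol synthesis and on estrogens, was at -0.32 (unadjusted p = 0.0848), from 12.98, 12.97 and 12.79 to 13.04, 12.10 and 12.63. The difference lay in Flutamide_2, and it was -0.05 without pair 2. ELOVL2, an elongase of very long fatty acids, was at 0.43 (unadjusted p = 0.108) and at 0.22 without pair 2. The 17 genes shared with the glucocorticoid receptor had a median of 0.04, and the 12 inflammatory genes of NF-kB one of -0.02.

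**Figure D3:**
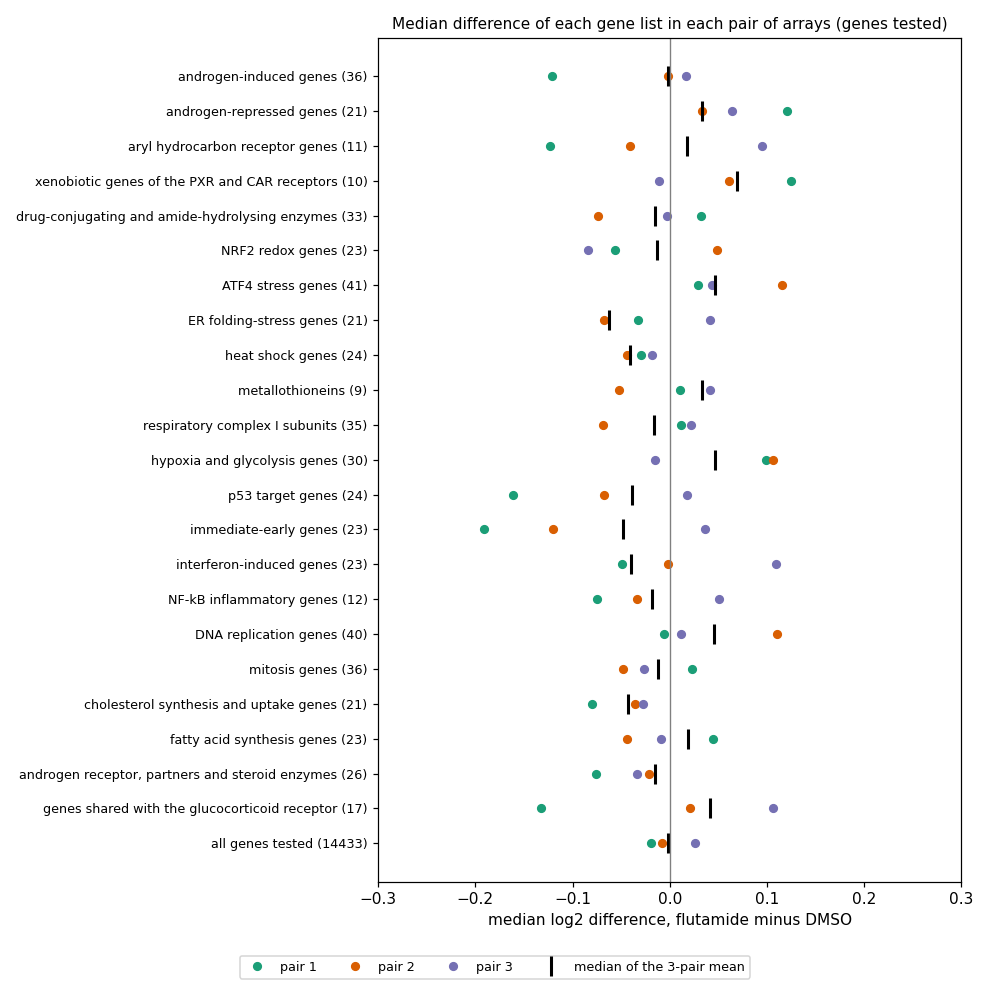
Median log2 difference between flutamide and DMSO (horizontal axis) of each gene list, with the number of genes tested in parentheses, for each of the 3 pairs of arrays (colored points) and for the mean of the 3 pairs (black mark). The black marks lie between -0.06 and 0.07, and in most lists the 3 pairs lie on both sides of 0.

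The largest differences of the array, taken among probes whose 3 pairs shared a sign, were mostly outside the gene lists, with CES2 as the 1 member among 20. The 10 highest ran from 0.81 to 1.02 on the log2 scale and the 10 lowest from -1.18 to -0.85, with unadjusted p-values between 0.00102 and 0.0412 and none called. They were picked for their size, so these values are a description. The 10 highest were MIR124-1HG, DYDC2, CD1E, PKP3, ZNF98, ANKZF1, ING1, GCM1, MPEG1 and ANO7, and the 10 lowest ZKSCAN1, CES2, ZNF646, ZFHX2, MBTD1, CEP152, LTBP1, FAM13A, SF1 and RASSF6. In 12 of the 20, pair 2 had the largest difference.

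How much of a difference pair 2 carried varied from gene to gene. MIR124-1HG, the host transcript of a neuronal microRNA, read 7.04, 7.35 and 6.56 with DMSO and 7.09, 9.55 and 7.37 with flutamide, so that 1.02 with all arrays became 0.43 without pair 2. CD1E, a lipid-antigen protein of dendritic cells, was likewise at 9.35 in Flutamide_2 alone and went from 0.96 to 0.38. DYDC2 read 6.63, 6.25 and 7.22 with DMSO and 7.66, 6.94 and 8.44 with flutamide, and its 0.98 (SE 0.29, unadjusted p = 0.00381) became 1.13 without pair 2. PKP3, plakophilin 3 of the desmosome, read 7.37, 7.36 and 6.78 against 8.58, 8.00 and 7.64, with no overlap. Its 0.90 (SE 0.23, unadjusted p = 0.00102) became 1.03, while its other probe was at -0.41.

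Among the lowest, ZKSCAN1, a zinc finger factor, read 10.04, 9.81 and 9.33 with DMSO and 9.14, 8.24 and 8.27 with flutamide, at -1.18 (SE 0.32, unadjusted p = 0.0018). The DHT arrays were as low, at 9.02, 7.75 and 9.15, so that flutamide differed from DHT by -0.09 (adjusted p = 0.952). ZNF646, a zinc finger protein, read 7.83, 7.60 and 8.27 against 6.96, 6.59 and 7.39 and was at -0.92 with all arrays and -0.88 without pair 2. FAM13A was at -0.88 and -0.83, and LTBP1, which holds latent TGF-beta in the matrix, at -0.89 and -0.97. The other LTBP1 probe, dim at a mean of 6.13 with DMSO, ran the other way at 0.47 (unadjusted p = 0.304 in limma). That probe was at -0.11 for DHT against DMSO. SF1, a splicing factor, had most of its difference in pair 2, at -0.88 with all arrays and -0.28 without pair 2. Against the same DMSO arrays, DHT gave -1.09 for ZKSCAN1, -0.54 for ZNF646, -0.85 for FAM13A, -1.31 for LTBP1 and -0.15 for SF1. MJC13 gave -0.56, -0.63, -0.17, -1.35 and -0.18 in the same order. CEP152, also among the 10 lowest, was at 0.59 with DHT and -0.29 with MJC13. All these values share the DMSO arrays, whose part in them was not tested.

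The same drug dose was also added to DHT, on arrays that share none with the comparison above. Limma called 0 of 28334 probes there (0%), with 730 at an unadjusted p under 0.05, 435 without the replicate block and a lowest adjusted p of 0.0967. On the 6 arrays of those groups alone with the replicate block, 13 probes were called. Of the 20 genes, 8 kept their direction with DHT, 5 of the highest and 3 of the lowest, 2 had all 3 pairs in the same direction and 3 all 3 pairs in the opposite one. Their median in the direction without DHT was 0.90, and -0.04 in the same direction with DHT. Those with an unadjusted p under 0.05 there were LTBP1 at 0.72 and FAM13A at 0.59 (limma, unadjusted p = 0.0203 and 0.0403), and both ran against their value without DHT. Over all probes the correlation of the mean differences without and with DHT was -0.12, and a test of the difference between the drug's effect with and without DHT called 0 probes, with 1051 at an unadjusted p under 0.05 and 636 without the replicate block.

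**Figure D4:**
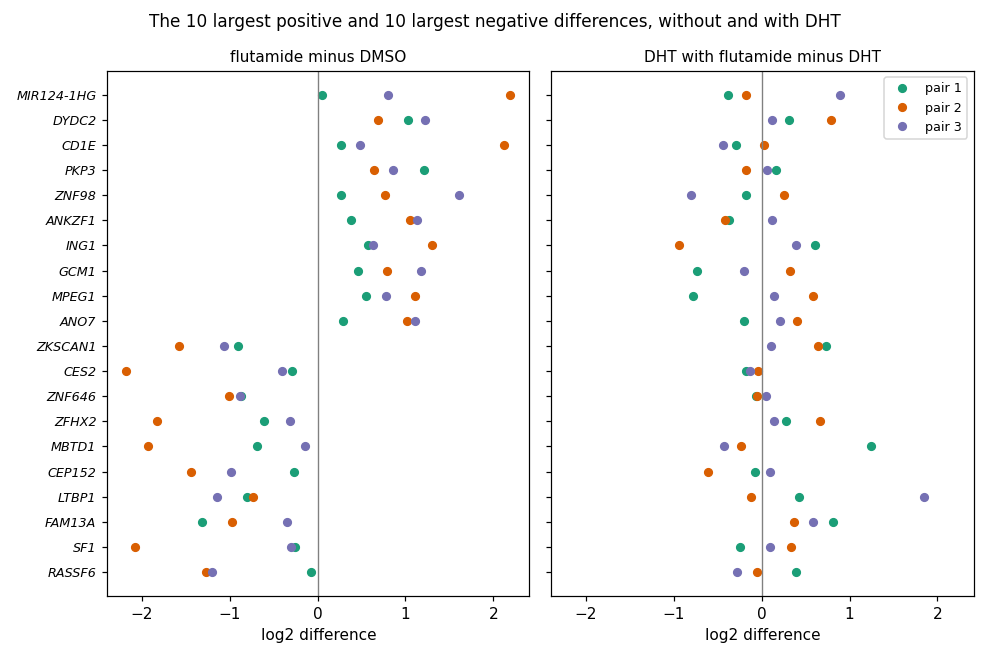
Log2 difference (horizontal axis) in each of the 3 pairs for the 10 genes of largest positive and the 10 of largest negative difference between flutamide and DMSO (left panel), and the same genes for flutamide added to DHT against DHT (right panel). The left panel is one-sided for each gene by the way the genes were chosen, and in the right panel 8 of the 20 genes have a mean on the same side.

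The 3 androgen genes described first had negative values when the drug was added to DHT, beside -0.60 for KLK3, 0.39 for KLK2 and -0.00 for TMPRSS2 without it. Adding flutamide to DHT gave -1.07 for KLK2 (unadjusted p = 0.000541), -1.15 for KLK3 (unadjusted p = 0.00665) and -0.77 for TMPRSS2 (unadjusted p = 0.00073) in limma, none called. The median of the 36 androgen-induced genes was -0.54 with DHT and -0.00 without. The effect with DHT minus that without was -1.46 for KLK2 (unadjusted p = 0.000763 in limma), -0.77 for TMPRSS2 (unadjusted p = 0.00985) and -0.55 for KLK3 (unadjusted p = 0.312), each with an adjusted p = 1.00.

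The gene with the lowest unadjusted p of all 14433, named after its values were seen, was JPH2, a junctophilin that ties the cell membrane to the endoplasmic reticulum in muscle. It read 9.06, 8.82 and 9.24 with DMSO and 9.57, 9.84 and 10.06 with flutamide. The groups did not overlap, with a log2 difference of 0.78 (SE 0.16, unadjusted p = 0.000152, adjusted p = 1.00 in limma), and 0.67 without pair 2. Flutamide was above DHT by 0.88 on the log2 scale, but this value uses the same flutamide arrays by which the gene was picked. It is therefore no separate test. DHT against DMSO gave -0.09 (unadjusted p = 0.577 in limma), and adding flutamide to DHT gave 0.14 (unadjusted p = 0.394).

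Against MJC13 without hormone, at 30 µM beside 1 µM flutamide, 0 of 28334 probes (0%) were called in limma, with 2131 at an unadjusted p under 0.05 and 1479 without the replicate block. The lowest adjusted p was 0.55. KLK2 differed between the 2 inhibitors by 0.30 (95% interval -0.23 to 0.83).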

How the data were processed

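RNA from 18 LNCaP samples was hybridised to Illumina bead arrays. The authors read them with GenomeStudio, and the deposited values are background-subtracted and quantile-normalized log2 intensities made with lumi, with versions, and whether the log2 is plain or variance-stabilized, not given in the sources used here. Quantile normalization gives every array the same distribution, so a shift of most genes cannot be seen. The number of arrays limits the precision, and chip and scan batches were not known for them. A table of non-normalized values was not used, because its 36 columns carry codes that tie to no sample.

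Groups and pairs came from the titles. The descriptions give another replicate number for 11 of the 18 arrays and 4 of the 6 compared. The number was kept as a block because the comparison was made in pairs by title number. Same-numbered DMSO and flutamide arrays deviated together from their group means (r = 0.17, 0.49 and 0.60). Between DMSO and flutamide arrays of different numbers, r lay between -0.54 and 0.08. The dimmest 40% of probes, by their mean over the arrays, were left out (mean log2 intensity of 6.31 or less), and the other 28334 of 47223 were fitted with limma 3.58.1 in R 4.3.3 over 6 groups and the block (10 residual degrees of freedom), Benjamini-Hochberg adjustment and a threshold of 0.05. The brightest tested probe stood for a gene. Of the probes, 30111 had 1 symbol, 8 several and 17104 none in the annotation used. The fit was tested on simulated data.

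For flutamide against DMSO, the genes named are those called (0), the 10 highest and 10 lowest probes whose 3 pairs share a sign, members of each list with the smallest p, and a set of androgen, xenobiotic and stress genes. Members and lists were chosen with earlier results of these data known. Alternatives were the block, the arrays in the fit, the filter, the moderation, the threshold and each array left out.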

Additional observations from a re-analysis of the deposited data

How the results depend on the processing

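Flutamide against DMSO gave 0 called probes, and 0 called members of the gene lists, under each of the 16 alternatives run, with the replicate block or without it and with each array left out. So did flutamide against MJC13 in the alternatives run for it. Flutamide added to DHT against DHT gave 13 calls on the arrays of those groups alone with the replicate block, and 1 with trend and robust moderation, against 0 in the main setting. Flutamide against DHT, with 654 calls, gave 80 with no replicate block, 57 and 21 on the arrays of those groups alone with and without the block, 50 with the description number as the block and 236 at an adjusted p under 0.01. Leaving out 1 array gave 187 (without DHT_2) to 429 (without Flutamide_2) calls, and leaving out Flutamide_1, Flutamide_3, DHT_1 or DHT_3 lay between them. Where a setting uses fewer arrays, its degrees of freedom are fewer. Why the block raises the count was not tested.

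Of 89 genes followed, 0 were called for flutamide against DMSO in any setting, and 22 had a sign that turned in at least 1. Leaving out 1 array moved the log2 difference over these ranges: AADAT -0.21 to 0.38, CDKN1A -0.07 to 0.20, CPLX2 -0.32 to 0.08, CYP1B1 -0.14 to 0.16, CYP3A5 -0.04 to 0.20, DDIT3 -0.06 to 0.20, FKBP5 -0.06 to 0.28, GDF15 -0.11 to 0.40, HMOX1 -0.32 to 0.23, HPGD -0.27 to 0.29, HSPA5 -0.21 to 0.14, MT2A -0.53 to 0.04, NQO1 -0.05 to 0.12, ORM1 -0.38 to 0.27, TIPARP -0.23 to 0.04, TMPRSS2 -0.12 to 0.11, TRIB3 -0.13 to 0.25, TRPM8 -0.20 to 0.12, UGT2B15 -0.06 to 0.06 and UGT2B17 -0.03 to 0.14. With the description number as the block, CPLX2 was at 0.03 and TIPARP at 0.01. Without Flutamide_2 and with no replicate block, TMPRSS2 was at 0.28, HPGD 0.03, UGT2B17 -0.04, NQO1 -0.19, HMOX1 0.13, TRIB3 -0.06, CDKN1A -0.19, DTL 0.00 and HSD17B6 0.04. With pair 2 left out, TMPRSS2 was at 0.03, HPGD 0.05, UGT2B15 0.04, UGT2B17 -0.06, TRIB3 -0.04 and HSPA5 0.02.

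The medians of the gene lists moved by more than the spread between the pairs in many settings. With 1 array left out the ranges were, for androgen receptor, partners and steroid enzymes -0.06 to 0.03, androgen-induced genes -0.10 to 0.01, androgen-repressed genes -0.02 to 0.07, aryl hydrocarbon receptor genes -0.11 to 0.10, ATF4 stress genes -0.03 to 0.06, cholesterol synthesis and uptake genes -0.07 to 0.01, DNA replication genes -0.06 to 0.11, drug-conjugating and amide-hydrolysing enzymes -0.06 to 0.05, ER folding-stress genes -0.09 to 0.01, heat shock genes -0.05 to -0.01, hypoxia and glycolysis genes -0.07 to 0.07, immediate-early genes -0.17 to -0.03, interferon-induced genes -0.11 to 0.09, metallothioneins -0.09 to 0.16, mitosis genes -0.08 to 0.08, NF-kB inflammatory genes -0.07 to 0.11, p53 target genes -0.14 to -0.03 and xenobiotic genes of the PXR and CAR receptors -0.00 to 0.21. With pair 2 left out, an alternative chosen after seeing the data, the medians were -0.09 for NRF2 redox genes, 0.01 for ER folding-stress genes, 0.02 for heat shock genes, 0.09 for metallothioneins and -0.05 for fatty acid synthesis genes. Averaging all probes of a gene gave -0.02 for androgen-repressed genes, -0.09 for NF-kB inflammatory genes and 0.05 for cholesterol synthesis and uptake genes. Probes near the array's floor, such as those of CYP1A1, CYP1B1 and ORM1 without hormone, understate a change.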
